A study of Danio rerio with 8 samples.

Results

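Microtubules and intermediate filaments give neurons their shape. Microtubules are polymers of alpha- and beta-tubulin pairs, each encoded by several genes (isotypes), and they are seeded by ring complexes built on gamma-tubulin. Stathmins bind free tubulin and destabilise microtubule ends, collapsin response mediator proteins (CRMPs, encoded by the dpysl genes) bind tubulin and act in axon growth, and neurofilament proteins, internexin and peripherin form the intermediate filaments of axons. Peripherin and stathmin 2 are classical proteins of peripheral, including sympathetic, neurons.

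The genes described here are the rows of a zebrafish count table whose symbols begin with tuba, tubb, tubg, stmn, nef, inaa or inab, prph, dcx or dpysl, which gave 41 of 14781 rows. The rule also asked for map1a, map1b, map1s, mapt, map2 and doublecortin, and 0 rows matched these, so they were not analysed here. The label held for 37 of the 41 rows. The other 4 were matched by the letters of their symbols alone: dcxr encodes an L-xylulose reductase, and prph2a, prph2b and prph2l belong to the peripherin-2 family of photoreceptor membrane proteins, which are not intermediate filaments. Of the 37 cytoskeletal genes, 10 encode alpha-tubulins, 5 beta-tubulins, 5 gamma-tubulin or parts of its ring complex, 6 stathmins and 5 CRMPs. The remaining 6 are the filament genes inaa, inab, neflb, nefma, nefmb and prph.

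RNA had been sequenced from sorted tumour cells of 2 groups of transgenic zebrafish. In the myrAKT group, 4 samples of ganglioneuroma cells had been sorted on mCherry; these fish carried the AKT kinase with a myristoyl anchor that holds it at the membrane. In the MYCN group, 4 samples of neuroblastoma cells had been sorted on EGFP, and these fish carried MYCN. Genotype, tumour type and sorting colour went together, so they cannot be told apart. The sources used here do not give the promoter behind each transgene, the age of the fish or the number of fish per sample, and the spread that p-values rest on is that between these samples, which may be technical.

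Read counts summed to between 25948623 and 43083220 per myrAKT library and between 36984845 and 55827123 per MYCN library. Of all 12126 genes tested, 38.4% were lower and 37.6% higher in myrAKT (edgeR quasi-likelihood test, adjusted p under 0.05). The marker counts that follow are to be set against these shares. Genes of the labelled cell type were present in both groups, and of 11 sympathetic genes tested 9 were lower in myrAKT and 2, ddc and isl1, did not pass. Among them dbh, the noradrenaline enzyme, averaged 1247 ± 377 CPM in myrAKT and 3348 ± 304 in MYCN (SD, n = 4 each; CPM are counts scaled to a common library size with TMM factors), and phox2bb, a transcription factor of this lineage, 88.7 ± 35.5 CPM in myrAKT and 452 ± 70.4 in MYCN. Of 11 pan-neuronal genes tested 11 were lower. Summed over the list they came to between 151 and 345 CPM in the myrAKT libraries and between 1351 and 1585 in the MYCN libraries. Markers of blood cells were far higher in myrAKT: the summed leukocyte list reached 15206 to 19033 CPM in myrAKT and 345 to 1071 in MYCN, with 10 of 10 tested genes higher, and the erythroid list 4319 to 10323 CPM in myrAKT and 36.1 to 152 in MYCN, with 9 of 9 higher. Endothelial genes were higher as well, 10 of 10, and cell-cycle genes 12 of 12. So were 7 of 8 kidney tubule genes, with list sums of 1151 to 4018 CPM in myrAKT and 26.0 to 50.8 in MYCN. Also higher were 8 of 11 motile cilia genes, 6 of 7 stroma genes and 7 of 7 thrombocyte genes. Of 10 lymphocyte genes 9 were higher and 1 lower. Of 7 glial genes 5 were higher and 1 lower, and of 5 germ cell genes 1 was higher and 2 lower. In these sorted populations a smaller share of neuronal cells and less RNA per neuronal cell cannot be told apart, and the part of these marker differences in the results below was not tested.

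Relative to all genes, more members were lower than higher in the ganglioneuroma samples, though unevenly. The counts of all members together were not lower, at 0.484% of all counts in myrAKT and 0.403% in MYCN, with overlap. That order depended on ribosomal protein genes, as given below. Of the genes that passed, 4 of the CRMPs, 3 of the stathmins, 5 of the alpha-tubulins and 3 of the beta-tubulins fell. So did prph, inab, tubgcp2 and tubgcp4, and also dcxr and prph2l, which are not cytoskeletal. The genes that rose were 3 alpha-tubulins, tubg1 and the neurofilament genes neflb and nefma. Of the 38 members that passed the filter on low counts, 21 were lower in myrAKT, 6 were higher and 11 did not pass (edgeR quasi-likelihood test, adjusted p under 0.05 over all 12126 genes tested). Over all genes tested 76.0% were called, 38.4% lower and 37.6% higher, so a call alone says little in this comparison. The median log2 fold change was -1.03 over the 38 members and -0.04 over all genes. Without the rows matched by name only, 36 members were tested, of which 19 were lower and 6 higher, with a median of -0.82. Of the 38 members, 19 fell and 5 rose by 2-fold or more, against 25.2% lower and 29.9% higher by that much over all genes. Without the rows matched by name only, 17 of 36 fell and 5 rose by that much. The groups did not overlap for 26 of the 38, and for 72.5% of all genes. Without MYCN 4, the library farthest from its group (described below), 10 members were higher and 21 lower. Of all 12350 genes tested in that fit, 4945 were higher and 5043 lower. Libraries were also scaled on the summed counts of dbh and th, 2 genes of catecholamine cells, which asks how a member moved relative to them. That scaling put the median of all genes at 1.45, and 18 members were then higher and 10 lower. It raised members by similar amounts, for example dpysl3 from -5.47 to -4.10 and dpysl5b from -0.12 to 1.28. Whether a member stayed lower thus mostly restates the size of its fall with TMM factors and is no separate check. Of all 12126 genes, 8320 were higher and 1029 lower on that scaling. Of the 11 members that had not passed, 10 passed as higher on it.

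**Figure D1:**
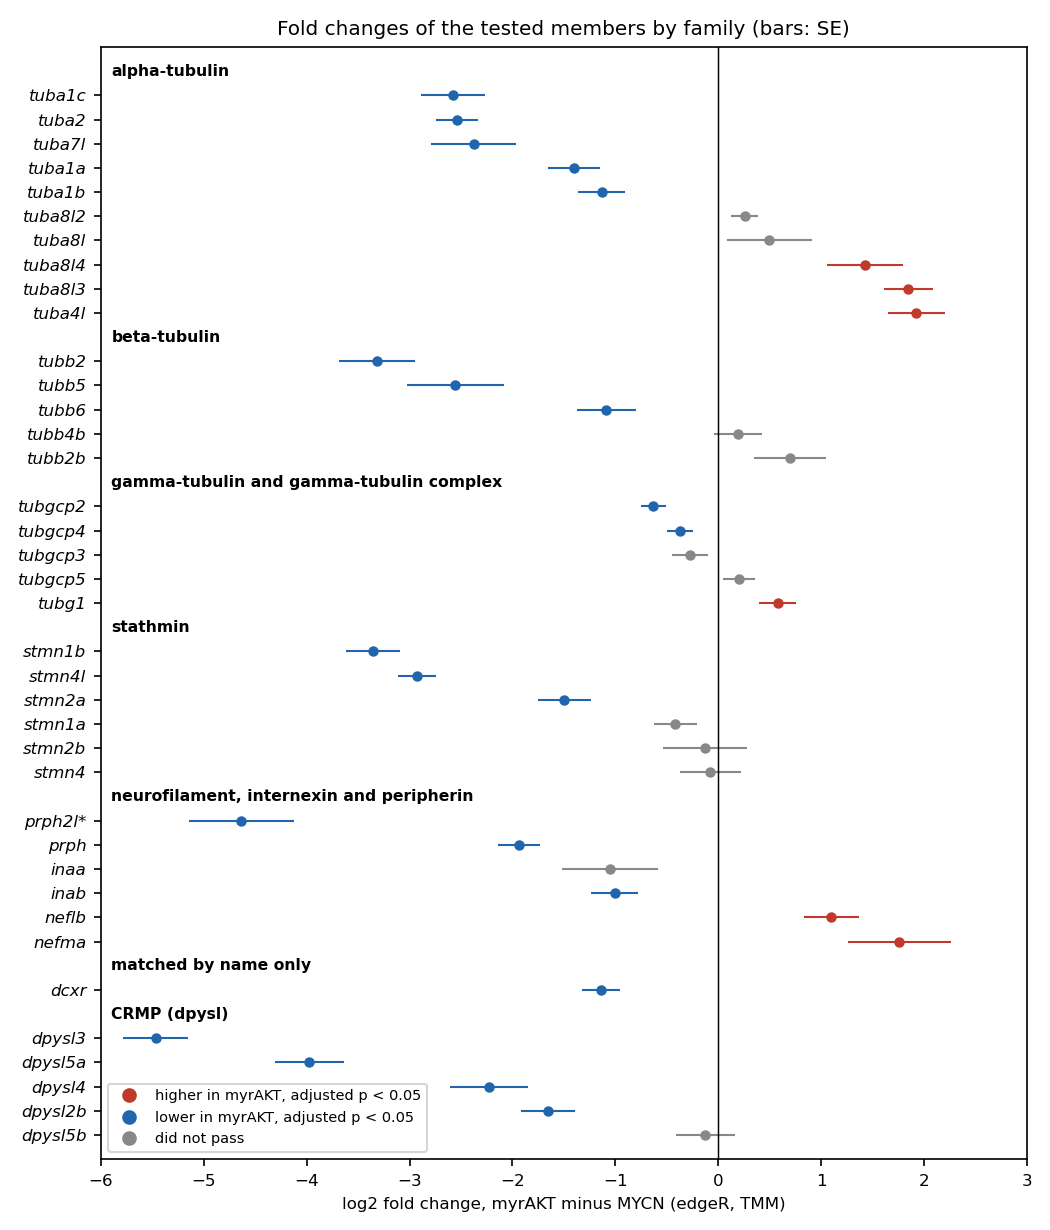
Log2 fold change (myrAKT minus MYCN, edgeR with TMM factors, bars are SE) of the 38 tested members, grouped by family, with red for higher, blue for lower and grey for genes that did not pass adjusted p 0.05. Values run from -5.47 for dpysl3 to 1.93 for tuba4l; dcxr and prph2l (asterisk) are not cytoskeletal genes.

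Alpha-tubulin genes went both ways. Of 10 genes, 5 fell (tuba1a, tuba1b, tuba1c, tuba2 and tuba7l), 3 rose (tuba8l4, tuba8l3 and tuba4l) and 2 did not pass. Over all genes tested 38.4% were lower and 37.6% higher, so calls both ways among so few genes say little by themselves. The family counts below are to be set against the same shares. Tuba2 had 28.7, 34.1, 48.2 and 53.7 CPM in myrAKT 1 to 4, against 241, 240, 259 and 214 in MYCN 1 to 4. Every myrAKT library lay far below every MYCN library, with a difference of -2.54 ± 0.20 on the log2 scale (SE; edgeR adjusted p = 2.8e-06). Tuba1c had 11.5, 12.5, 23.6 and 31.8 CPM in myrAKT, against 108, 121, 116 and 128 in MYCN, the largest fall among alpha-tubulins (-2.58 ± 0.31, edgeR adjusted p = 4.2e-05). Tuba1a, whose mammalian counterpart is the main alpha-tubulin of developing neurons, had 47.6, 63.8, 73.5 and 82.6 CPM in myrAKT, against 176, 146, 124 and 261 in MYCN. Its groups did not overlap, and the difference was -1.40 ± 0.25 (edgeR adjusted p = 6.1e-04). Tuba1b was at 19.4 ± 3.25 CPM in myrAKT and 42.5 ± 11.9 in MYCN (log2 fold change -1.13). For tuba1a and tuba1b the direction ended with libraries scaled on dbh and th, at 0.03 and 0.33 on the log2 scale, without passing. Tuba2 and tuba1c stayed lower under it, at -1.15 and -1.25. Tuba7l was rare, with 6 to 10 counts per myrAKT library and 22 to 56 counts per MYCN library (log2 fold change -2.38), and did not pass on that scaling, at -0.98.

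The alpha-tubulins that rose included the one with the most counts. Tuba8l4 had 1813, 1737, 1249 and 1058 CPM in myrAKT 1 to 4, against 373, 394, 359 and 1053 in MYCN 1 to 4. MYCN 4 came just below the lowest myrAKT library, while the other 3 MYCN libraries lay close together. The log2 fold change was 1.43 ± 0.37 (edgeR adjusted p = 0.0058), and 1.96 without MYCN 4. Tuba8l3 had 15.8, 15.8, 21.9 and 22.1 CPM in myrAKT, against 4.07, 4.12, 5.17 and 7.53 in MYCN (log2 difference 1.85 ± 0.24, edgeR adjusted p = 6.2e-05). Tuba4l, low in both groups, averaged 3.21 ± 0.66 CPM in myrAKT and 0.845 ± 0.259 in MYCN, the largest rise of any member (1.93 ± 0.28, edgeR adjusted p = 1.3e-04). These 3 genes rose without any one library, and under every scaling tried. Each other scaling moved the median of all genes up from -0.04, so the rise under these is no separate check.

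Tuba8l and tuba8l2 did not pass, a result that depended both on MYCN 4 and on the scaling. Tuba8l, named tuba5 in current RefSeq, had 594, 540, 433 and 395 CPM in myrAKT, against 225, 218, 204 and 746 in MYCN. MYCN 4 was the highest of all 8 libraries and the other MYCN libraries were the 3 lowest. The log2 fold change of 0.50 (edgeR adjusted p = 0.295) became 1.18 (adjusted p = 1.5e-04) without MYCN 4, and 0.95 (adjusted p = 0.0253) when library totals replaced the TMM factors. Tuba8l2 was at 104 ± 6.81 CPM in myrAKT and 86.6 ± 13.2 in MYCN (log2 fold change 0.26), and passed without MYCN 4 at 0.36. With MYCN 4 kept, tuba8l2 passed with library totals at 0.65 and with upper-quartile factors at 0.32.

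Of 5 beta-tubulin genes 3 were lower, 0 higher and 2 did not pass. Tubb5 had 23.5, 36.0, 51.4 and 73.2 CPM in myrAKT 1 to 4, against 189, 200, 157 and 534 in MYCN 1 to 4. The groups lay well apart although MYCN 4 exceeded the other MYCN libraries by far (log2 fold change -2.55 ± 0.47, edgeR adjusted p = 7.0e-04, and -2.0 without MYCN 4). Tubb2 had 4.55, 7.37, 8.17 and 10.3 CPM in myrAKT, against 93.9, 56.6, 40.1 and 112 in MYCN, the largest fall among tubulins at -3.32 ± 0.37 (edgeR adjusted p = 2.3e-05). Tubb6 was rare, with 14 to 16 counts per myrAKT library and 26 to 39 counts per MYCN library. Its log2 fold change of -1.09 (edgeR adjusted p = 0.0058) did not pass with library totals and turned to 0.33, still short of the threshold, when scaled on dbh and th.

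Tubb4b and tubb2b, which held most beta-tubulin counts in both groups, did not pass. Tubb2b had 599, 635, 435 and 406 CPM in myrAKT, against 244, 228, 199 and 606 in MYCN. MYCN 4 lay among the myrAKT libraries, and the other 3 MYCN libraries lay below all of them. The log2 fold change was 0.70 ± 0.35 (edgeR adjusted p = 0.0935), and 1.2 (adjusted p = 3.9e-04) without MYCN 4. Tubb4b had 1148, 1118, 968 and 879 CPM in myrAKT, against 787, 757, 652 and 1395 in MYCN. It too was higher without MYCN 4, by 0.48 (adjusted p = 0.0088), against 0.20 (adjusted p = 0.467) with all libraries. When library totals replaced the TMM factors, tubb2b and tubb4b both passed as higher, at 1.14 and 0.61, in a fit where the median of all genes was 0.34.

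Counts were also set against each other within a family, a ratio inside each library that no scaling factor changes. Such shares are of reads and depend on transcript length, so they do not give molecules, and reads from near-identical tubulin copies could have been assigned unevenly. Tuba8l4 took 68.6%, 68.7%, 63.3% and 60.0% of alpha-tubulin counts in myrAKT 1 to 4, against 30.3%, 31.3%, 30.0% and 41.0% in MYCN 1 to 4. Tuba2 took 1.98 ± 0.92% in myrAKT and 17.2 ± 5.97% in MYCN, tuba1a 3.18 ± 1.28% in myrAKT and 11.6 ± 1.92% in MYCN, and tuba1c 0.98 ± 0.65% in myrAKT and 8.28 ± 2.24% in MYCN. None of these 4 shares overlapped between the groups. The tuba8l share, by contrast, was 22.0 ± 0.50% in myrAKT and 20.4 ± 5.79% in MYCN, with overlap. Of beta-tubulin counts, tubb2b took 32.1 ± 2.88% in myrAKT and 19.7 ± 2.13% in MYCN, and tubb5 3.05 ± 1.79% in myrAKT and 16.4 ± 2.63% in MYCN. The tubb4b share differed less, at 64.3 ± 1.63% in myrAKT and 58.9 ± 4.25% in MYCN.

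**Figure D2:**
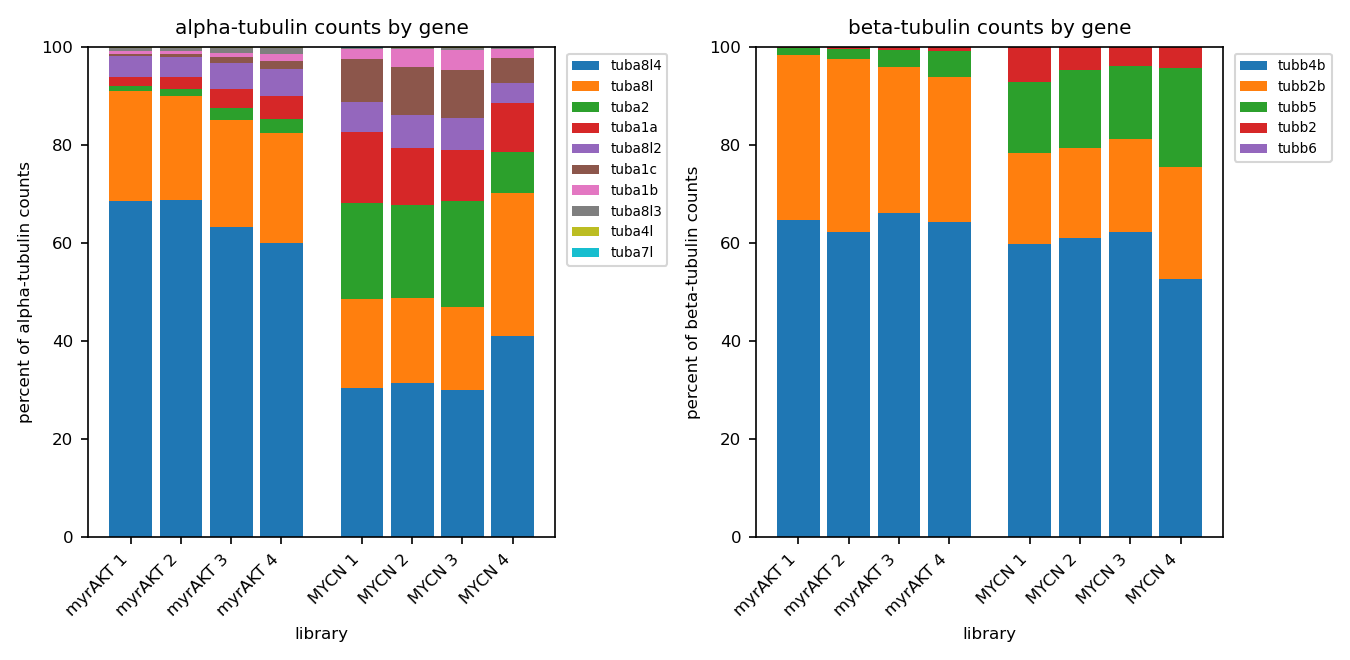
Percent of all alpha-tubulin counts (left) and all beta-tubulin counts (right) assigned to each gene in each library, myrAKT libraries left of MYCN libraries. Tuba8l4 fills 60.0% to 68.7% of the alpha-tubulin bars in myrAKT and 30.0% to 41.0% in MYCN, and tubb5 narrows to between 1.32% and 5.35% of beta-tubulin in myrAKT, against 14.4% to 20.2% in MYCN.

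Family totals were also set against all counts. Alpha-tubulins took 0.253 ± 0.0387% of all counts in myrAKT and 0.133 ± 0.0400% in MYCN, without overlap, and beta-tubulins 0.182 ± 0.0181% in myrAKT and 0.132 ± 0.0437% in MYCN, where MYCN 4 alone overlapped with myrAKT. CRMPs took 0.00602 ± 0.00225% in myrAKT and 0.0702 ± 0.0176% in MYCN, and stathmins 0.0192 ± 0.00578% in myrAKT and 0.0464 ± 0.0109% in MYCN, both without overlap. All members together took 0.484 ± 0.051% of counts in myrAKT and 0.403 ± 0.066% in MYCN. Ribosomal protein genes took 12.5% to 13.8% of counts in myrAKT libraries and 25.0% to 34.2% in MYCN libraries. With these left out of the denominator the difference in the share of all members was -0.017 percentage points in place of 0.081. The alpha-tubulin difference was then 0.101 points, with MYCN 4 inside the myrAKT range. That of beta-tubulin was 0.020 points in place of 0.050.

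Gamma-tubulin and its ring complex, which seed microtubules in every cell type, moved little with TMM factors. No change reached 2-fold with these factors, with 2 of 5 genes lower, 1 higher and 2 not passing. Among all genes tested 38.4% were lower and 37.6% higher. Tubg1, gamma-tubulin itself, had 66.0, 70.1, 55.3 and 54.0 CPM in myrAKT, against 34.2, 38.6, 35 and 56.4 in MYCN. MYCN 4 lay above 2 of the myrAKT libraries, and the log2 fold change was 0.58 ± 0.18 (edgeR adjusted p = 0.0150). For tubg1 it was 0.98 with library totals and 2.12 on the dbh and th scaling. Tubgcp2, a ring complex subunit, was at 27.6 ± 2.04 CPM in myrAKT and 42.8 ± 4.26 in MYCN (-0.63 ± 0.12, edgeR adjusted p = 8.7e-04). It did not pass with library totals (-0.26) and was higher, at 0.87, on the dbh and th scaling. The fall of tubgcp4 (-0.37, edgeR adjusted p = 0.0217) ended with library totals and upper-quartile factors, and without any one of myrAKT 1, myrAKT 3, myrAKT 4 or MYCN 3, and turned to 1.12 on the dbh and th scaling. Tubgcp5 did not pass, at 0.20, but passed as higher with library totals (0.56) and on the dbh and th scaling (1.70). Tubgcp3 did not pass, at -0.27, and its sign turned with library totals (0.098) and on the dbh and th scaling (1.29).

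Stathmins divided into genes that fell steeply and genes with no call. Of 6 genes 3 fell and 3 did not pass. Stmn1b had 8.75, 12.9, 13.5 and 19.8 CPM in myrAKT 1 to 4, against 112, 144, 180 and 125 in MYCN 1 to 4. The highest myrAKT library was far below the lowest MYCN library (log2 fold change -3.36 ± 0.26, edgeR adjusted p = 2.2e-06). Stmn4l had 8.68, 13, 9.74 and 13.6 CPM in myrAKT, against 77.8, 97.2, 94.3 and 72.8 in MYCN (-2.93 ± 0.19, edgeR adjusted p = 6.8e-07). Stmn2a, a counterpart of the axonal stathmin 2 of mammals, had 44.3, 65.4, 84.3 and 116 CPM in myrAKT, against 192, 204, 243 and 232 in MYCN. It fell by 1.5 on the log2 scale (SE 0.26, edgeR adjusted p = 4.7e-04), about as much as dbh (-1.42), and was at -0.15 without passing on the dbh and th scaling. Stmn1b and stmn4l stayed lower there, at -1.99 and -1.50.

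Stmn1a and stmn1b are named after the same mammalian gene, which is high in dividing cells. Stmn1a did not pass. It had 39.6, 49.0, 32.6 and 32.3 CPM in myrAKT, against 41.6, 45.4, 46.4 and 71.5 in MYCN (log2 difference -0.42 ± 0.21, edgeR adjusted p = 0.0923). The dividing-cell marker mki67 was at 368, 443, 240 and 225 CPM in the same myrAKT libraries, against 54.3, 52.3, 49.2 and 47.4 CPM in MYCN, higher in every myrAKT library. Within the family, stmn1a took 24.7 ± 9.24% of stathmin counts in myrAKT and 9.85 ± 2.59% in MYCN, and stmn1b 8.15 ± 0.63% in myrAKT and 26.7 ± 3.01% in MYCN. Stmn4 (20.2 ± 9.11 CPM in myrAKT and 21.2 ± 3.27 in MYCN) and stmn2b (5.38 ± 2.11 CPM in myrAKT and 5.83 ± 3.34 in MYCN) had overlapping groups, and their sign changed with library totals and with single libraries left out.

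CRMP genes had the largest change of any member. Of 5 genes 4 fell and 1 did not pass. Dpysl3, which encodes CRMP4, had 8.54, 11.6, 13.3 and 19.8 CPM in myrAKT 1 to 4, against 670, 654, 644 and 380 in MYCN 1 to 4. MYCN 4 was far below the other MYCN libraries, yet it was many times above every myrAKT library. The log2 fold change of -5.47 ± 0.32 (edgeR adjusted p = 4.0e-07) corresponds to a level lower in myrAKT by a factor of 44.3. Dpysl5a, a CRMP5 gene, had 3.24, 5.51, 7.39 and 11.2 CPM in myrAKT, against 97.8, 105, 97.5 and 126 in MYCN (-3.97 ± 0.33, edgeR adjusted p = 3.7e-06). Dpysl4 had 4.76, 8.32, 10.8 and 14.9 CPM in myrAKT, against 36.8, 36.7, 31.6 and 75.4 in MYCN (-2.23 ± 0.38, edgeR adjusted p = 4.4e-04). All 3 stayed lower on the dbh and th scaling, at -4.10 for dpysl3, -2.63 for dpysl5a and -0.86 for dpysl4.

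Dpysl2b, a CRMP2 gene, fell less, with 12.2 ± 2.76 CPM in myrAKT and 38.3 ± 12.4 in MYCN (log2 fold change -1.65), and did not pass on that scaling (-0.25). Dpysl5b, the paralogue of dpysl5a, had 7.41, 9.93, 10.1 and 12.6 CPM in myrAKT, against 11.6, 13.5, 13.1 and 5.44 in MYCN. Its groups overlapped, with MYCN 4 the lowest library of all (log2 fold change -0.12, edgeR adjusted p = 0.706). Within the family dpysl3 took 25.4 ± 0.99% of CRMP counts in myrAKT and 73.6 ± 7.77% in MYCN, and dpysl5b 19.8 ± 2.44% in myrAKT and 1.35 ± 0.32% in MYCN. Crmp1, a CRMP gene whose symbol the rule did not match, averaged 2.13 ± 0.81 CPM in myrAKT and 22.3 ± 4.05 in MYCN (log2 fold change -3.40).

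**Figure D3:**
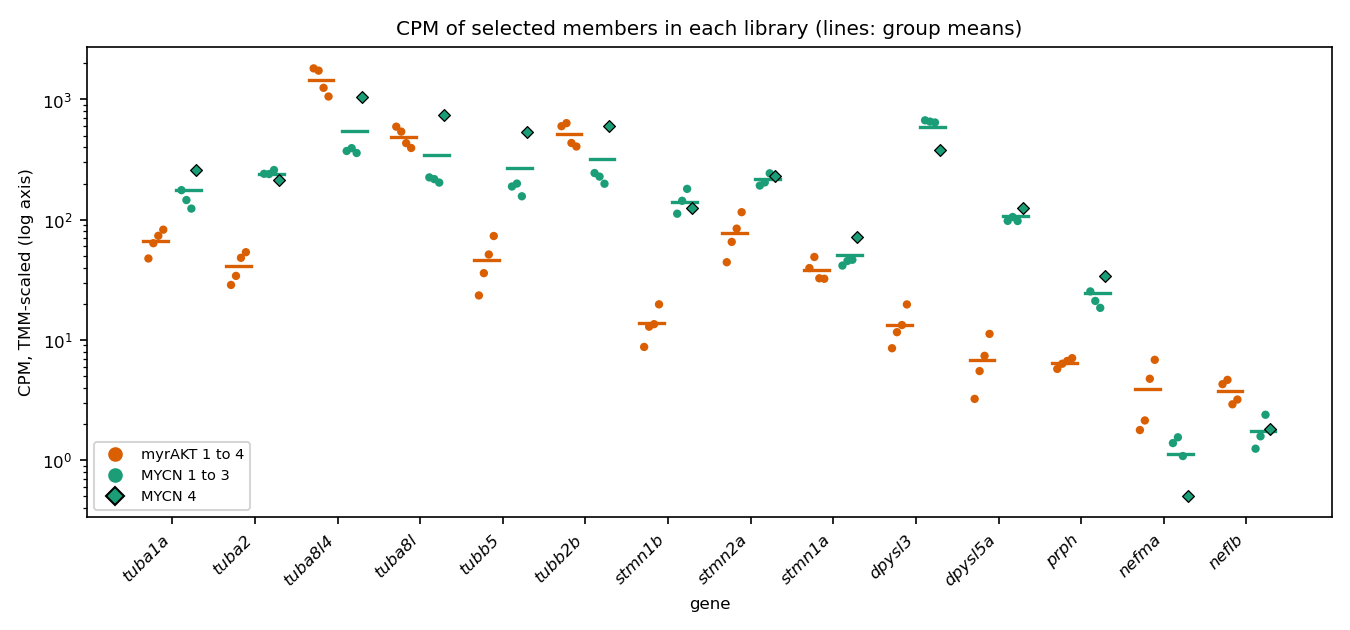
TMM-scaled CPM on a log axis of 14 members in each library, myrAKT (orange) left of MYCN (green), with group means as lines and MYCN 4 as a diamond. Dpysl3 lies between 8.54 and 19.8 CPM in myrAKT and between 380 and 670 in MYCN, while for tuba8l and tubb2b the diamond lies among or above the myrAKT points.

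The intermediate filament genes went both ways at low counts. Peripherin (prph) had 5.75, 6.35, 6.69 and 7.06 CPM in myrAKT 1 to 4, against 25.3, 21.1, 18.5 and 33.8 in MYCN 1 to 4. The myrAKT libraries were close together and all below MYCN (log2 fold change -1.94 ± 0.20, edgeR adjusted p = 1.7e-05). Scaled on dbh and th, prph did not pass, at -0.47. The internexin gene inab was at 1.91 ± 0.13 CPM in myrAKT and 3.82 ± 0.93 in MYCN (-1.01 ± 0.23, edgeR adjusted p = 0.0026), and turned to 0.47, without passing, on that scaling. Inaa had 6.29, 9.20, 12.1 and 14.2 CPM in myrAKT, against 14.2, 12.9, 11.9 and 47.0 in MYCN. Only MYCN 4 stood well clear of the myrAKT range, and inaa did not pass (-1.05 ± 0.47, edgeR adjusted p = 0.0647, and -0.34 without MYCN 4). It passed as lower without MYCN 2 (-1.24, adjusted p = 0.0442), without MYCN 3 (-1.23, adjusted p = 0.0460) and with DESeq2 (adjusted p = 0.0437).

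The neurofilament genes that could be tested were higher in myrAKT. Nefma, a gene of the medium neurofilament protein, had 1.78, 2.14, 4.76 and 6.84 CPM in myrAKT, against 1.39, 1.55, 1.08 and 0.50 in MYCN. Libraries 3 and 4 of myrAKT held most of this rise, with myrAKT 1 close to the MYCN range (log2 fold change 1.76 ± 0.50, edgeR adjusted p = 0.0092). Neflb, a gene of the light neurofilament protein, had 4.29, 4.66, 2.92 and 3.20 CPM in myrAKT, against 1.25, 1.58, 2.39 and 1.82 in MYCN (1.1 ± 0.27, edgeR adjusted p = 0.0036). For this gene myrAKT 1 and 2 were the highest, the reverse of nefma. Both rose without any one library, and under every scaling tried. The other scalings moved the median of all genes up from its value with TMM factors, so they are no separate check of these rises. Nefmb, with between 0 and 11 counts per library, failed the filter.

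Of the rows matched by name only, dcxr was at 3.61 ± 0.48 CPM in myrAKT and 7.94 ± 1.15 in MYCN (-1.14 on the log2 scale, edgeR adjusted p = 3.1e-04, and 0.31 without passing when scaled on dbh and th). Prph2l had 1, 0, 4 and 2 counts in myrAKT, against 55, 35, 54 and 33 counts in MYCN, where 3 counts correspond to at most 0.116 CPM in any library. Prph2a, with 0 to 21 counts per library, failed the filter, and prph2b was at 0 in all 8 libraries.

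Some members lie side by side in the genome, as ordered in the RefSeq annotation of assembly GRCz12tu. Tuba1a is the neighbour of both tuba1c and tuba1b, and prph is the neighbour of tuba2. All 5 of these genes were lower in myrAKT, as were 38.4% of all genes tested. Whether neighbours moved together was not tested. The amounts were unequal: -1.40, -2.58 and -1.13 for tuba1a, tuba1c and tuba1b, and -1.94 and -2.54 for prph and tuba2. Neflb is the neighbour of nefmb, which was too low to test. If tuba1a, tuba1b and tuba1c are alike enough to share reads, the authors' counting may have divided these differently than they arose. Their sequences were not compared here.

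**Figure D4:**
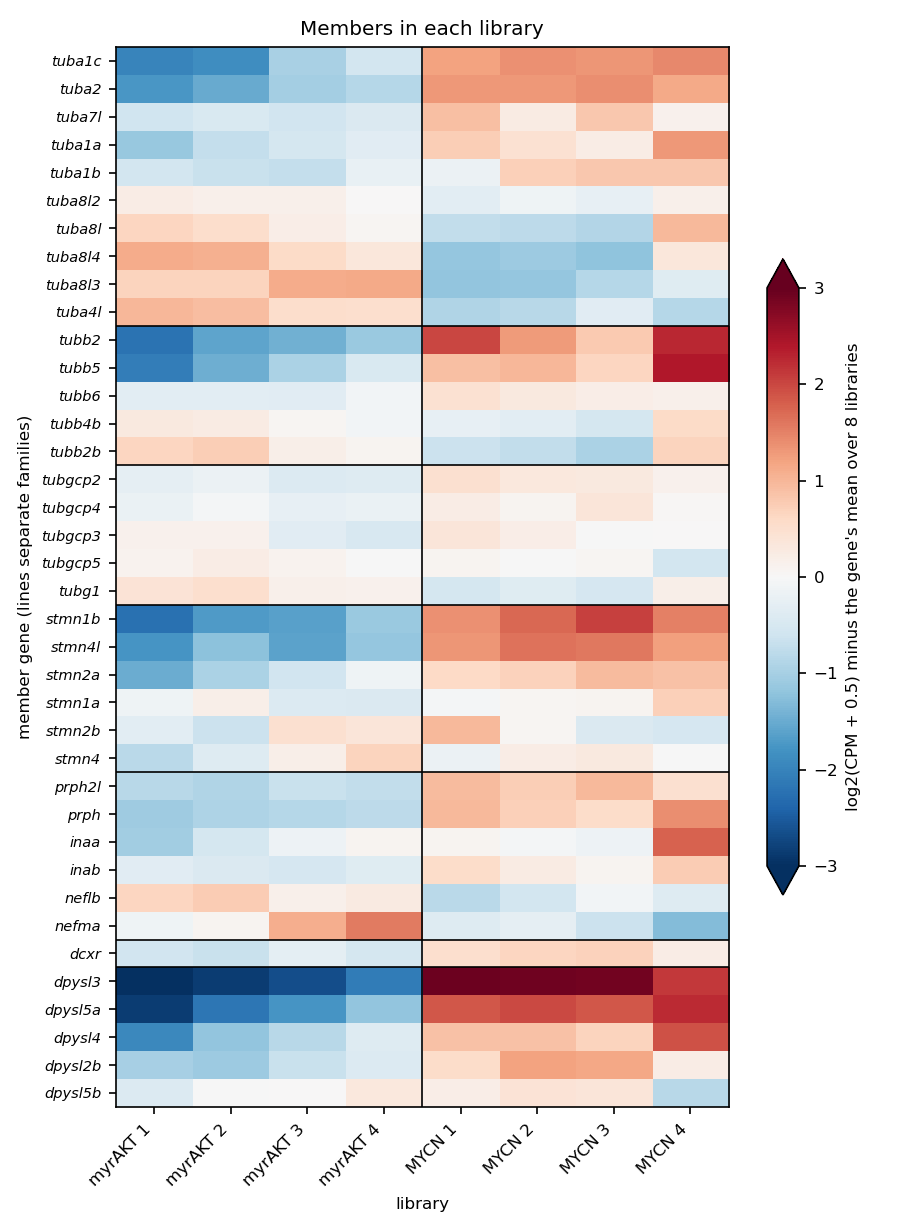
Log2(CPM + 0.5) of each tested member in each library, minus that gene's mean over the 8 libraries, with red above and blue below the mean and the colour scale ending at 3 in either direction; myrAKT libraries are on the left. Dpysl3, dpysl5a, stmn1b and tubb2 are blue in all myrAKT libraries, and in MYCN 4 tuba8l, tuba8l4 and tubb2b are red where they are blue in MYCN 1 to 3.

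Within myrAKT, library 4 was the highest for 16 of the 21 members that were lower in myrAKT, and library 1 the lowest for 13 of them. Dbh had 784, 1130, 1417 and 1658 CPM in myrAKT 1 to 4 and th 694, 921, 1235 and 1553 CPM. Mki67 and tuba8l4 were higher in myrAKT 1 and 2 than in myrAKT 3 and 4. Within MYCN, library 4 was the highest for 18 of the 38 tested members and the lowest for 14. In MYCN 4, 7 of the 38 members deviated by more than 1 on the log2 scale from the mean of the other MYCN libraries, as did 11.1% of all tested genes. For each of the other libraries, that share of all genes was between 0.404% and 4.49%. In myrAKT 4, 5 of the 38 members deviated that far from the other myrAKT libraries, all upward, as did 1.62% of all genes. In myrAKT 1 it was 4 members, all downward, and 2.15% of all genes. No other library had more than 1 such member.

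Microtubule motor genes, other microtubule-associated genes and tubulin-modifying genes, listed apart from the rule, were more often lower than higher. The lists here and in the next paragraph used TMM factors and were chosen with earlier results of these data known. Of all genes tested, 38.4% were lower and 37.6% higher, the shares to set each list count against. Of 18 microtubule motor genes tested 14 fell and 3 rose, with a median log2 fold change of -0.54. Kif5c, a neuronal kinesin heavy chain, averaged 5.09 ± 1.07 CPM in myrAKT and 91.6 ± 6.40 in MYCN, and dync1i1, a neuronal dynein chain, 5.05 ± 0.54 CPM in myrAKT and 56.6 ± 5.51 in MYCN. Klc1a and dctn1a, a kinesin light chain and a dynactin subunit, rose by 0.47 and 0.87. Of 23 other microtubule-associated and end-binding genes 18 fell and 4 rose (median -0.97). Dclk1b, a relative of doublecortin, was at 0.45 ± 0.09 CPM in myrAKT and 21.2 ± 3.92 in MYCN. The end-binding genes mapre3a and mapre1a moved apart, with mapre3a at 1.92 ± 0.22 CPM in myrAKT and 26.1 ± 6.66 in MYCN, and mapre1a at 167 ± 13.4 CPM in myrAKT and 37.7 ± 28.9 in MYCN. Nde1, a dynein regulator, rose by 1.22.

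Of 28 genes that fold, sever or modify tubulin 14 fell, 7 rose and 7 did not pass (median -0.71). Among all genes tested 38.4% were lower and 37.6% higher. Among those that fell, ttll12 averaged 14.1 ± 1.59 CPM in myrAKT and 63.9 ± 6.10 in MYCN. Vash2, a tubulin carboxypeptidase, was higher at 13.2 ± 1.49 CPM in myrAKT and 1.54 ± 0.24 in MYCN, as was fignl1 (log2 fold change 2.50). Delta- and epsilon-tubulin and centrosome genes went the other way: of 13 tested 11 rose and 1, the row of mzt1, fell (median 1.57). Haus5 and haus3, parts of the augmin complex of the spindle, rose by 3.37 and 2.35. The dividing-cell genes mki67 and top2a rose in the same libraries, by 2.65 and 2.71. Of 14 listed entries of other intermediate filament genes 9 rose and 3 fell (median 1.08). The entries krt18 and krt18a.1 matched the same row, so that gene counts more than once. This median and count of rises are therefore slightly too high. The epithelial keratin krt8 was at 1128 ± 47.9 CPM in myrAKT and 107 ± 27.9 in MYCN. Krt18 rose by 3.29, whereas the muscle filament desma and the lamin lmnb1 fell by 3.94 and 0.78 on the log2 scale.

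**Figure D5:**
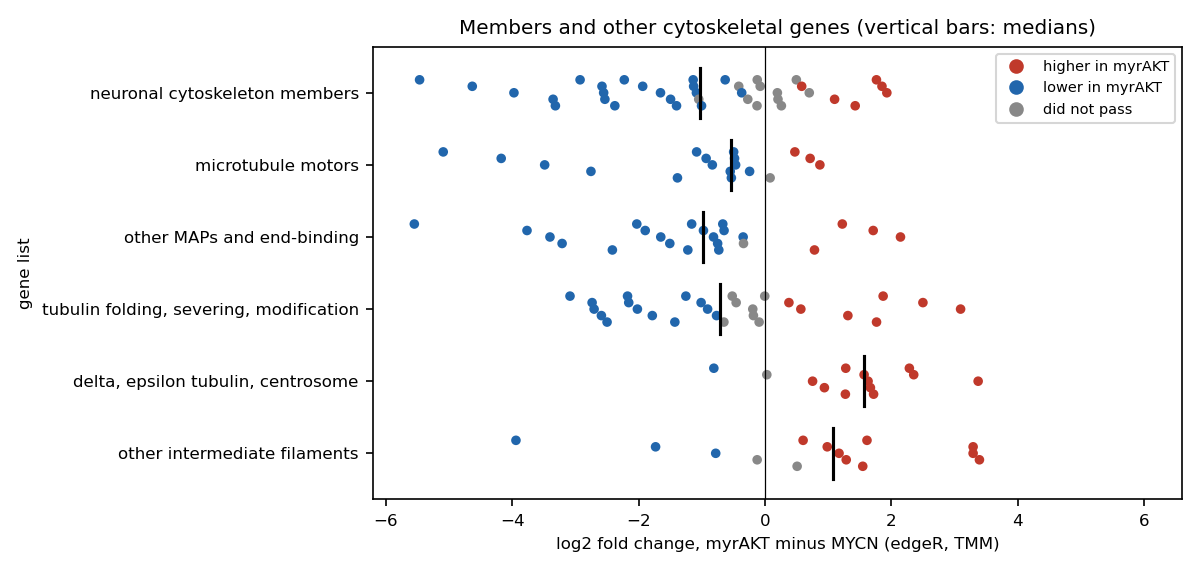
Log2 fold changes (myrAKT minus MYCN) of the members and of 5 lists of other cytoskeletal genes, one point per tested gene, with red for higher, blue for lower, grey for not passing adjusted p 0.05 and a vertical bar at each median. The median is -1.03 for the members, and -0.82 for them without dcxr and prph2l. For the lists it is -0.54 for motors, -0.97 for other microtubule-associated genes and -0.71 for tubulin folding and modification. It is 1.57 for delta-, epsilon-tubulin and centrosome genes and 1.08 for other intermediate filaments. In that last list krt18 has a repeated point, since the entries krt18 and krt18a.1 matched the same row.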

How the data were processed

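The authors deposited raw read counts per gene symbol, 1 column per library, with no normalization. Per the submitters' processing notes, the build was GRCz10 and the tools included HTSeq 0.6.1, TopHat2 2.1.1, FastQC 0.11.5, edgeR, SAMtools 1.5 and Trim Galore 0.4.4. The sources used here do not give their order, the annotation, the strand setting or the handling of shared reads, so counts of near-identical tubulin copies are uncertain. All columns matched a sample by name, and the 12 within-group pairs of libraries had a chi-square per degree of freedom between 21.2 and 286, so each counted as 1 sample.

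All genes were fitted in R 4.3.3 using edgeR 4.0.16, after filterByExpr by group (12126 genes), with TMM factors (1.10 to 1.22 in myrAKT and 0.747 to 1.04 in MYCN) and the robust quasi-likelihood F test (two-sided; p-values adjusted over all genes by Benjamini-Hochberg) at a threshold of 0.05. Log2 fold changes are myrAKT minus MYCN, and each standard error is the fold change over the root of its F. Alternatives used DESeq2 1.42.0 and limma 3.58.1 (voom), other scalings and filters, a replicate block, and each library left out. On simulated counts of 12036 genes for this comparison, recovery was 45 of 99 for genes altered 2-fold and 88 of 99 for genes altered 4-fold. Only these genes were altered, whereas 76.0% of all genes tested were called in the data. The adjustment of p-values is stricter with so few altered genes, so this recovery does not give that of the data.

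The members and gene lists were chosen with earlier results of these data known. Genes were to be described in full if, within a family, they had 1 of the 3 highest mean CPM, the largest called fall or rise, or a call against the family's majority; the rest are named so that every member is accounted for. In the lists of other genes, up to 2 with the smallest adjusted p in each direction were named; crmp1 was chosen after its values were seen, and a gene that the rule named is not reported here. RefSeq names of assembly GRCz12tu matched 39 of 41 members as current symbols and the others as synonyms. Of the listed other genes, symbols absent from the table were also matched through an older symbol where only 1 gene held it. No coordinates or sequences are given, since the gene table is of another assembly and holds no sequence.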

Additional observations from a re-analysis of the deposited data

Results flagged for a closer look

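Of 120 sets of 4 libraries checked (CPM of the 38 tested members, family shares and tubulin isotype shares, in each group), 17 held a library far from the other 3 (gap over range above Dixon's 0.829), and in 14 of these it was MYCN 4. Chance flags about 1 in 20. The sets are not independent, since members of a family share libraries and reads.

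MYCN 4 was high for tuba8l, at 746 CPM against 204 to 225 CPM in the other MYCN libraries, for tuba8l4, at 1053 CPM against 359 to 394 CPM, and for tubb2b, at 606 CPM against 199 to 244 CPM. Tubb5 was at 534 CPM there against 157 to 200 CPM, stmn1a at 71.5 CPM against 41.6 to 46.4 CPM, inaa at 47.0 CPM against 11.9 to 14.2 CPM and dpysl4 at 75.4 CPM against 31.6 to 36.8 CPM. Dpysl3 was low in MYCN 4, at 380 CPM against 644 to 670 CPM.

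Beta-tubulins took 0.198% of all counts in MYCN 4 and 0.109% to 0.112% in the other MYCN libraries, and the rows grouped with the filament genes 0.00665% against 0.00379% to 0.00400%. Within alpha-tubulin, tuba8l took 29.1% in MYCN 4 against 17.0% to 18.3%, and tuba8l4 41.0% against 30.0% to 31.3%. Within beta-tubulin, tubb2b took 22.9% against 18.4% to 19.0%, and tubb6 0.0245% against 0.0625% to 0.0698%.

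In other libraries, tuba1b was low in MYCN 1, at 24.7 CPM against 46.6 to 49.4 CPM. Tuba4l was high in MYCN 3, at 1.23 CPM against 0.683 to 0.747 CPM. Tubb6 was high in myrAKT 4, at 0.475 CPM against 0.314 to 0.333 CPM.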

How the results depend on the processing

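The members counted as higher and lower in myrAKT were 6 and 21, and stayed within 1.5 times these with DESeq2 size factors, upper-quartile factors, no filter, CPM of at least 1 in 4 libraries, DESeq2 and voom. Library totals gave 11 higher and scaling on dbh and th gave 18 higher and 10 lower. Over all 12126 genes, library totals gave 5507 higher, and scaling on dbh and th gave 8320 higher and 1029 lower. Leaving out single libraries gave 6 to 10 members higher and 20 to 22 lower. The median of -1.03 was -0.59 with library totals, -0.60 with CPM of at least 1 in 4 libraries, which removed 3 low members, and 0.42 on the dbh and th scaling. The median of all genes moved with the scaling too, from -0.04 to 0.34 with library totals and to 1.45 on the dbh and th scaling. On that scaling, which set the median of all genes at 1.45, signs turned for dpysl5b (1.28), tubb6 (0.33), stmn1a (1.13), tubgcp2 (0.87), tuba1a (0.034), tubgcp4 (1.12), dcxr (0.31), inaa (0.37), stmn2b (1.27), tubgcp3 (1.29), tuba1b (0.33), inab (0.47) and stmn4 (1.25). With library totals (median of all genes 0.34, 62.2% of calls higher against 49.5% with TMM) they turned for dpysl5b (0.23), stmn2b (0.27), tubgcp3 (0.098) and stmn4 (0.30). Over single libraries left out, dpysl5b ranged from -0.36 to 0.0043, stmn2b from -0.33 to 0.33 and stmn4 from -0.38 to 0.13. Without ribosomal protein genes in the denominator, the differences in shares (percentage points, myrAKT minus MYCN) were -0.0920 for CRMPs, -0.0433 for stathmins, -0.00307 for filament genes, 0.000621 for gamma-tubulin genes, 0.101 for alpha-tubulins, 0.0200 for beta-tubulins and -0.0169 for all members.

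Replicate numbers 1 to 4 occur in both groups, and same-numbered libraries did not deviate together (correlations between -0.195 and 0.0694, 0 of 4 best with their own number). With the replicate block 6 members were higher and 21 lower, with tubgcp4 lost (adjusted p = 0.0687) and inaa gained (adjusted p = 0.0424). Low counts limit nefma, tuba4l, tuba7l, tubb6, prph2l and the untested members.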
